A study of Cricetiscus sungorus with 216 samples.

Results

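Cytosolic ribosomal protein (RP) genes were followed through a programmed seasonal cycle in the mediobasal hypothalamus (MBH), pituitary gland, paraventricular nucleus (PVN) and dorsomedial hypothalamus (DMH) of Djungarian hamsters. An RP gene was any gene symbol made of Rpl or Rps and a number, with or without a closing a, l or x, or any of Rplp0, Rplp1, Rplp2 and Rpsa. The rule reads only the symbol, but it was set with earlier results of these data known. The rule found 84 genes in all and 72 that stood in all 4 tables. There were 82 among 20156 gene symbols in the MBH, 81 among 22482 in the pituitary gland, 74 among 18960 in the PVN and 83 among 21821 in the DMH.

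The hamsters were adult males. A control group stayed on long days (long photoperiod, LP), and 8 groups spent 4, 8, 12, 16, 20, 24, 28 or 32 weeks on short days (short photoperiod, SP). Each of the 9 groups held 6 hamsters, and the 54 hamsters gave 54 nanopore cDNA libraries per tissue and 216 in all. The study's methods name a direct cDNA kit for the pituitary gland and a kit with PCR for the hypothalamic areas, whereas the labels name the PCR kit throughout, so depth and spread of the pituitary gland cannot be told apart from its kit. The hamsters came from a laboratory colony and no group carried a modified gene or received a drug. The hypothalamic areas were taken as tissue punches, which hold all cell types of the area, and the pituitary gland was whole tissue. In such bulk tissue, fewer cells of a type and less RNA per cell cannot be told apart. The question put to the RP genes was whether their transcripts change as hamsters enter, hold and leave the winter state.

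The ribosome is built from a small and a large subunit, each of which joins ribosomal RNA to a set of RPs that cells make in near equal numbers. RP transcripts are among the most abundant of any cell. They carry a run of pyrimidines at their 5′ end, through which the mTOR pathway sets how much of them is translated when nutrients and growth signals change. RP genes such as Rps18, Rpl13a and Rpl32 are also in common use as reference genes in qPCR.

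Every table gave estimated counts per isoform, which were summed per gene symbol. Gm32262 and Lars2 were left out of the totals because they took up to 69.1% and 32.2% of the counts of a library. The remaining counts per library ran from 4433 to 7173251 in the MBH (median 952266), from 22418 to 391532 in the pituitary gland (median 63485), from 159 to 998193 in the PVN (median 168892) and from 87435 to 5882549 in the DMH (median 931854). Fewer than 10000 counts were left in 1 MBH library (20 weeks SP, replicate 2) and in 2 PVN libraries (LP replicate 1, which had the 159 counts, and 16 weeks SP replicate 4). Cell type markers fitted the pituitary gland, with mean levels of 73772 CPM (counts scaled to a common library total, with TMM factors of edgeR) for Gh, 15939 CPM for Pomc and 6338 CPM for Prl. In the MBH, Pomc had 202 and Npy 152 CPM. The hypothalamic peptide genes were low in the DMH, with 0.455 CPM for Npy and 2.25 CPM for Hcrt, beside 89.5 CPM for the neuronal gene Snap25. In the PVN, Snap25 had 511 and Trh 159 CPM.

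What the tables counted as an RP gene differed between tissues. The PVN table shared 0 isoform identifiers with each of the others. It lacked the symbols Rpl10l, Rpl32l, Rpl36, Rpl36a, Rpl39l, Rpl41, Rpl6l, Rps19, Rps29 and Rps4l. It alone held the symbol Rps3a, while the others held Rps3a1, which the rule does not take. A missing symbol need not mean a missing gene. Rps6, the small subunit protein that is phosphorylated below mTOR, had 38063 counts over the 54 libraries of the MBH, 1416 in the pituitary gland and 12686 in the DMH, but 76 counts in 30 libraries in the PVN. The PVN value of Rps6 was therefore not compared with other tissues.

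RP genes have given rise to many processed pseudogenes, and reads of an RP transcript can be assigned to such copies. Symbols named as a pseudogene of an RP gene numbered 222 in the DMH, 222 in the pituitary gland, 23 in the MBH and 0 in the PVN. The search read only names with -ps, so copies under other names were not counted in any tissue. Since the PVN table has other identifiers, its 0 cannot show whether reads went to such copies. Their counts came to 10.4%, 85.0% and 73.1% of those of the RP genes themselves in the MBH, pituitary gland and DMH. In the DMH, Rps2 had 4084 counts and its 10 pseudogene symbols 30849 together. Rps12 had 7221 against 43933 over 21 symbols, and Rpl9 had 11298 against 56390 over 8 symbols. In all, 24 of the 58 RP genes with such symbols in the DMH, 30 of 58 in the pituitary gland and 2 of 12 in the MBH had fewer counts than their pseudogene symbols together. In the MBH these were Rps12, with 22005 counts against 52349 over 9 symbols, and Rps15a, with 6856 against 20065 over 3. Such a sum grows with the number of symbols and can exceed the RP gene where no single symbol does. Whether the same reads stood under several symbols was not tested. Levels of RP genes with pseudogene symbols are uncertain in the 3 tables, and in the PVN this could not be judged. Levels were not compared between RP genes at all, since transcript lengths were not used here.

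**Figure D1:**
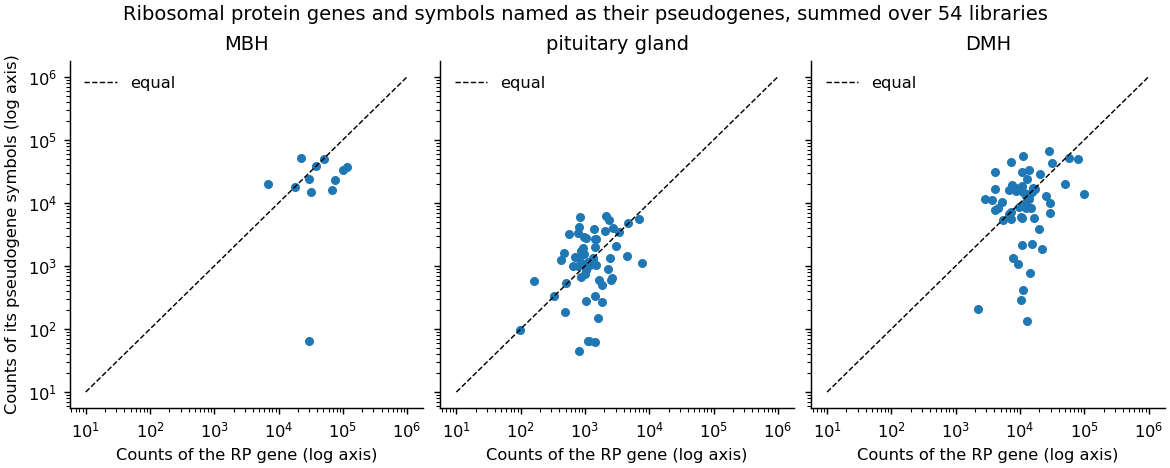
Counts of each RP gene (x axis, log scale) and of the symbols named as its pseudogenes (y axis, log scale), summed over 54 libraries, in the MBH, pituitary gland and DMH. Each point is an RP gene, and points above the dashed line had fewer counts than all their pseudogene symbols together, as 24 of 58 did in the DMH.

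Isoforms gave a further limit. In the pituitary gland, 33 RP genes had several isoforms. Pairs of such a gene and a library were taken where the highest isoform had at least 5 counts. In 932 of 1449 such pairs (64.3%) all isoforms were equal to within 1 count. The share was 28.9% in the MBH, 43.3% in the PVN and 41.5% in the DMH. A bound of 1 count is met more easily where counts are few, so these shares cannot be compared between tissues. Summed counts of genes with equal isoforms may hold a read more than once. Rpl22, a large subunit protein that also binds viral and cellular RNA, had 5 isoforms in the MBH, with 53060 counts summed and 10775 in the highest of them.

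RP genes were read in nearly all libraries. In the MBH, 72 of 82 had counts in all 54 libraries, as had 61 of 81 in the pituitary gland, 16 of 74 in the PVN and 45 of 83 in the DMH. Allowing for 2 libraries without counts, these numbers were 79, 75, 70 and 72. A filter on low counts (filterByExpr of edgeR) was passed by 79 of 82, 70 of 81, 72 of 74 and 79 of 83. Those that missed it included the testis and muscle paralogs. Rpl10l, the testis copy of Rpl10, had 35 counts in the MBH, 1 in the pituitary gland and 11 in the DMH. Rpl39l, a testis copy of Rpl39, had 70 counts in the MBH and 21 in the DMH, and Rpl3l, the copy of Rpl3 in striated muscle, had 1 count each in the PVN and DMH.

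The share of counts held by the RP genes overlapped between LP and every SP group in each tissue, while the group medians lay furthest apart, in proportion, in the DMH. In the MBH their share was 3.83% in the lowest, 5.82% in the median and 6.21% in the highest LP hamster. Group medians in the MBH ran from 4.46% at 16 weeks SP to that of LP, with an SD of 1.37 percentage points within groups (n = 6 each). In the pituitary gland the LP share was 1.97%, 2.49% and 2.92% (lowest, median and highest), and group medians ran from 2.32% at 24 weeks to 2.59% at 12 weeks SP. In the PVN, LP had 6.62%, 9.43% and 19.5%, where the highest value came from 31 of 159 counts (95% Clopper-Pearson interval 13.6% to 26.5%, which covers counting error only). Without that library the LP median was 8.64% and the highest value 10.4%. PVN group medians ran from 8.50% at 32 weeks to 10.5% at 20 weeks SP, and every group overlapped LP. In the DMH, LP had 0.741%, 1.45% and 3.27%, and group medians ran from 0.686% at 4 weeks to 1.73% at 8 weeks SP.

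**Figure D2:**
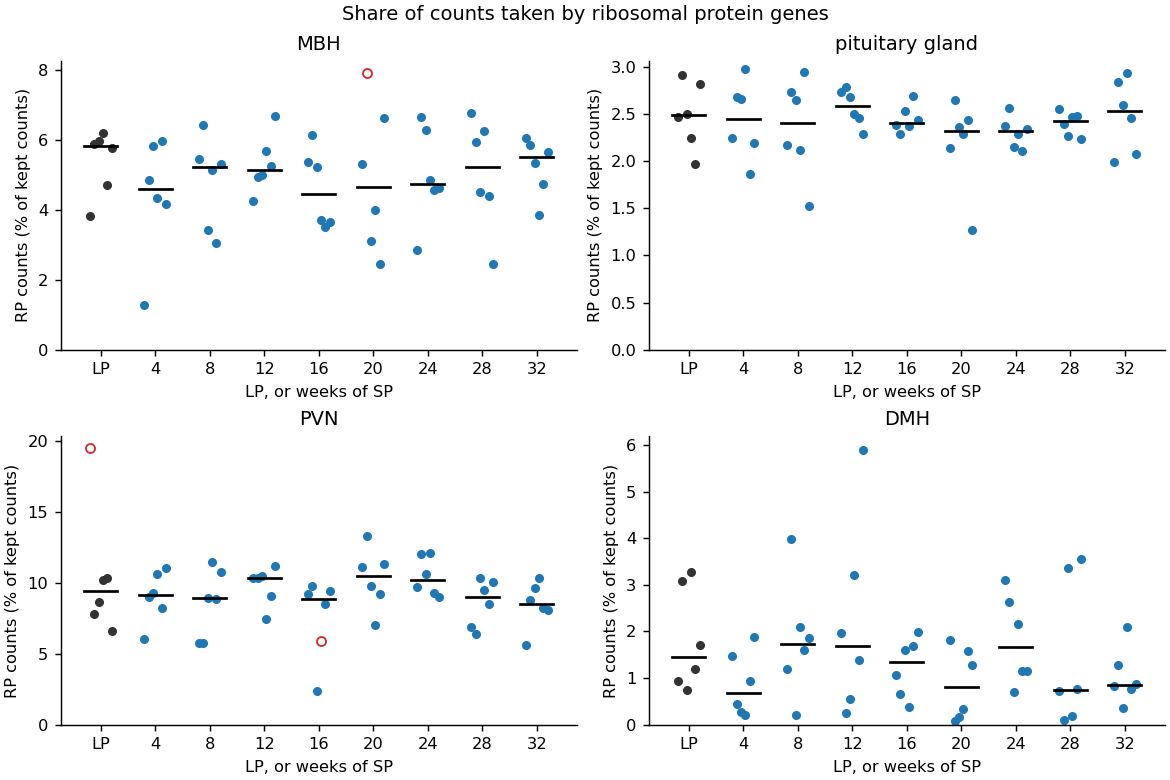
Share of counts taken by RP genes (% of counts, y axis) in each library of LP (black) and of each SP week (blue), with group medians as lines, in 4 tissues. Open red circles are libraries of fewer than 10000 counts. The groups overlap in every tissue, and DMH libraries run from 0.0848% to 5.90%.

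The widest spread was in the DMH. There the share ran from 0.0848% (20 weeks SP, replicate 2) to 5.90% (12 weeks SP, replicate 6), which is 69.6-fold. In the MBH it ran 5.33-fold, from 1.27% to 6.76%, among the 53 libraries with at least 10000 counts. The share was low where a small set of very abundant symbols took most counts. Both are fractions of the same total, so that a library nearly filled by these symbols must have a low RP share. The 12 symbols with the highest mean share, among them Akap5, Gm33937, Bc1 and Lrrc17 in both tissues, took between 22.2% and 97.2% of the counts of a DMH library (median 85.2%) and between 4.45% and 86.7% in the MBH (median 37.7%). The DMH library with the lowest RP share had 97.2% of its counts in these 12 symbols and the library with the highest had 28.4%. With the 12 symbols left out, a choice made after the data were seen, the RP share had a median of 7.43% in the DMH and 7.72% in the MBH. It then ran from 2.44% to 12.1% in the DMH, which is 4.94-fold. The part of the abundant symbols in the level of single RP genes was not tested.

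**Figure D3:**
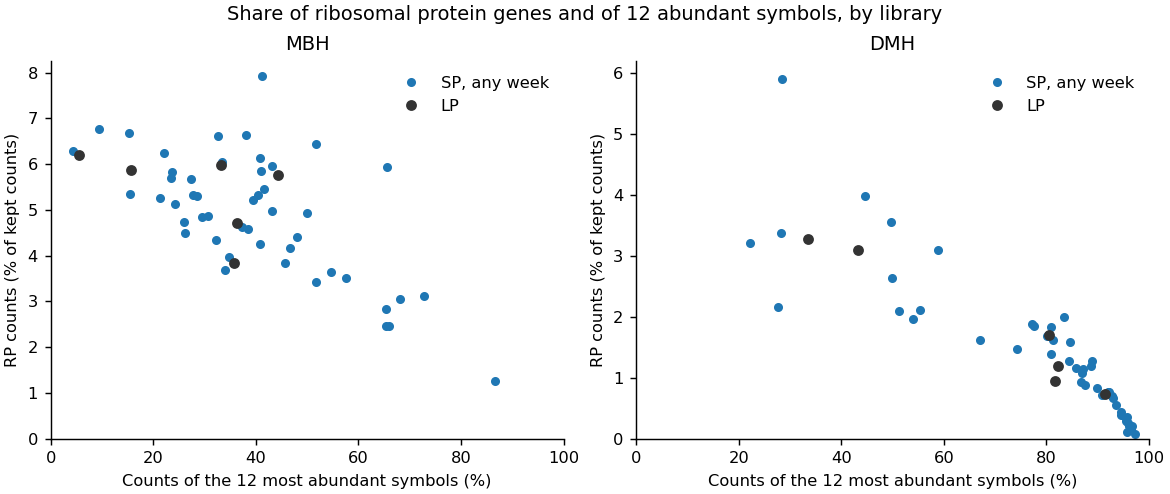
Share of counts taken by RP genes (%, y axis) against the share taken by the 12 most abundant symbols (%, x axis) in each MBH and DMH library, LP in black and SP in blue. Libraries with more of their counts in the 12 symbols lie lower, down to 0.0848% at 97.2% in the DMH.

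The ratio of large to small subunit counts was followed within each tissue. It is no measure of balance between the subunits and was not compared between tissues, since transcript lengths were not used, the tables hold different RP genes and isoform sums can count a read several times. In the MBH, Rps24 had 239787 counts summed over 7 isoforms and 34299 in the highest of them. Counts of large subunit genes over counts of small subunit genes had a median of 1.65 in the MBH (1.37 to 1.78), 1.66 in the pituitary gland (1.18 to 2.21), 1.73 in the PVN (1.55 to 2.10 among libraries of at least 10000 counts) and 1.59 in the DMH (1.01 to 1.94). Group medians of this ratio ran from 1.59 to 1.70 in the MBH, from 1.55 to 1.85 in the pituitary gland, from 1.69 to 1.79 in the PVN and from 1.505 to 1.69 in the DMH.

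No RP gene passed the test for a seasonal change in the MBH. Of 82 RP genes, 0 passed an FDR below 0.1 over the 9 groups in the quasi-likelihood F-test of edgeR, and 0 had an unadjusted p below 0.05, against 0.437% of all symbols called and 8.03% with an unadjusted p below 0.05. Over an annual wave of 32 weeks 0 RP genes were called and 0 had such a p, against 1.74% and 7.70% of all symbols. These shares were lower among the 8971 symbols that passed the filter. Of these, 13 were called over the 9 groups (0.145%) and 174 had an unadjusted p below 0.05. Over the wave the numbers were 26 (0.290%) and 262. Set against LP at each of the 8 SP weeks, 0 of 656 comparisons were called and 2 had an unadjusted p below 0.05 (0.305%), against 0.00930% and 4.60% of all symbols. DESeq2 and limma-voom, which was run in each tissue only on symbols that passed the filter, also called 0 RP genes in each test. Over the 9 groups DESeq2 called 12 of all symbols and limma-voom 2 of those that passed the filter. At single weeks DESeq2 gave 3 comparisons with an unadjusted p below 0.05 and limma-voom 1. All p-values rest on the spread between libraries of different hamsters, in which hamster and library cannot be told apart. In the same libraries, 3 of 8 pituitary marker genes were called over the 9 groups, among them Tshb, the thyrotropin beta subunit, with 656 ± 344 CPM in LP (SD, n = 6) and an adjusted p of 4.46e-12.

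Among MBH genes of the stalk, which recruits the elongation factors, Rplp0 had 62.7, 91.2 and 138 CPM in LP (lowest, median and highest of 6 hamsters, scaled by TMM, as are all levels of single genes that follow). Its group medians ran from 81.3 CPM at 24 weeks to 100.3 CPM at 28 weeks SP, inside the LP range, and its largest log2 fold change against LP was 0.15 ± 0.22 at 16 weeks (SE, adjusted p = 1, edgeR). Rplp2 had 751, 1432 and 2366 CPM in LP, and group medians between 1368 and 1624 CPM. Rpsa, the laminin receptor protein of the small subunit, had 253, 378 and 603 CPM in LP and its lowest group median, 324 CPM, at 16 weeks SP, where the log2 fold change was -0.25 ± 0.22.

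Small subunit genes of the MBH behaved in the same manner. Rps6 had 405, 548 and 989 CPM in LP and group medians from 523 to 589 CPM. Rps3, which lines the channel where mRNA enters, had 282, 418 and 742 CPM in LP and its lowest value against LP at 24 weeks SP, with a log2 fold change of -0.39 ± 0.30 (95% interval -0.98 to 0.20). Rps18 had 170 CPM in the lowest, 222 in the median and 450 CPM in the highest LP hamster, and its group medians reached 310 CPM at 32 weeks SP. Its log2 fold changes stayed between -0.05 ± 0.27 at 24 weeks and 0.34 ± 0.27 at 28 weeks. None of these differences passed the test.

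The MBH genes with the smallest p over the 9 groups were Rps4l, Rpl10l, Rpl17, Rps14 and Rpl11. The lowest of these, for Rps4l, was an unadjusted 0.306 in the F-test of edgeR. Rps4l rested on 162 counts. It had 31.04 CPM in LP replicate 3 and between 0 and 1.99 CPM in the other LP hamsters, and at 12 and 16 weeks SP it gave the only unadjusted p below 0.05 of the MBH, with an adjusted p of 0.867 and 0.896. Rpl17, a large subunit protein at the exit of the nascent chain, had 1191, 1773 and 2839.5 CPM in LP and 1233, 1676 and 7359 CPM at 28 weeks SP. Rps14 had 329, 438 and 814 CPM in LP and 373, 445 and 2025 CPM at 28 weeks. Rpl11, which binds the 5S ribosomal RNA with Rpl5 and holds back Mdm2 when ribosome assembly fails, had 617, 922 and 1302 CPM in LP.

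The high values at 28 weeks SP all came from replicate 2. This library was the highest of its group for 76 of 82 RP genes and stood apart from the other 5 for 57 of them. Its total RP level was 107604 CPM with TMM, against 36295 to 53715 CPM in the other 5, while its share of counts was 5.93%, within the 2.46% to 6.76% of its group. Its 12 most abundant symbols took 65.6% of its counts and its TMM factor was 0.551. Rps27a reached 3619 CPM and Rpl11 3253 CPM in it, against highest LP values of 1555 and 1302 CPM. Rpl41, the shortest RP, had the largest log2 fold change of the RP genes that passed the filter, 0.56 ± 0.29 at 28 weeks (adjusted p = 0.999). It had 173, 228 and 384 CPM in LP and 167, 298 and 777 CPM at 28 weeks, the last of these in replicate 2. Its group with that library therefore covered the whole range of LP.

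No RP gene passed the test in the pituitary gland. Of 81 RP genes, 0 were called by edgeR over the 9 groups and 0 had an unadjusted p below 0.05, against 9.53% of all symbols called and 17.7% with an unadjusted p below 0.05. The share of all symbols depended on the tool and on low counts. In the same fit 88 of the 1602 symbols that passed the filter on low counts were called. Fits to those symbols alone called 6 with edgeR and 4 with limma-voom, and DESeq2 called 1 of all symbols. With these, 0 RP genes called is near the background. Prl, the prolactin gene, had an adjusted p of 1.64e-23 in edgeR. Over an annual wave 0 RP genes were called and 0 had an unadjusted p below 0.05, against 5.68% and 13.7% of all symbols. Of the 1602 symbols that passed the filter, 12 were called over the wave (0.749%) and 47 had such a p. Over the 9 groups 175 of them had such a p. At single SP weeks 0 of 648 comparisons were called and 1 had an unadjusted p below 0.05 (0.154%), against 0.00278% and 6.78%. DESeq2 and limma-voom called 0 RP genes, with 3 and 24 comparisons at single weeks below an unadjusted p of 0.05. At single weeks DESeq2 called 6 comparisons of all symbols and limma-voom 54 of symbols that passed the filter.

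Rplp2 in the pituitary gland had 841, 923 and 1312 CPM in LP and group medians from 795 CPM at 4 weeks to 1054 CPM at 24 weeks SP. Rps27a, which is made as a fusion with ubiquitin, had 358, 509 and 632 CPM in LP and group medians from 408 to 552 CPM. Rps18 had 131, 199 and 308 CPM in LP and group medians from 166 to 217 CPM. Rpl13a had 280, 398 and 511 CPM in LP and Rpl32 84.1, 320 and 460 CPM. The group medians of Rps27a, Rps18, Rpl13a and Rpl32 lay inside the range of the LP hamsters.

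The pituitary RP genes with the smallest p over the 9 groups were Rps27l, Rpl29, Rpl15, Rpl3 and Rps29. The lowest of these, for Rps27l, was an unadjusted 0.413 in the F-test of edgeR. Rps27l, a copy of Rps27 that is induced by p53, had 197 counts in 29 libraries. Rpl3, which reaches towards the centre where peptide bonds form, had 153, 228 and 261 CPM in LP and 23.3, 125 and 170 CPM at 4 weeks SP, and its log2 fold change of -0.89 ± 0.56 at 4 weeks (95% interval -2.001 to 0.22, adjusted p = 0.723, edgeR) was the largest of the RP genes that passed the filter. At 24 weeks SP it had 44.3, 117 and 162 CPM and a log2 fold change of -0.89 ± 0.56. Both SP groups lay mostly under the LP hamsters but overlapped them, and 98 counts in all stood behind the LP values. Rpl29 moved to either side of LP, with a log2 fold change of -0.63 ± 0.50 at 8 weeks and 0.57 ± 0.49 at 12 weeks SP. Rpl15 had 352, 487 and 802 CPM in LP and its highest group median, 733 CPM, at 16 weeks SP.

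In the PVN, 0 of 74 RP genes were called by edgeR over the 9 groups and 0 had an unadjusted p below 0.05, against 0.0158% of all symbols called and 6.12% with an unadjusted p below 0.05. Over an annual wave 0 were called and 0 had such a p, against 0.538% and 6.40% of all symbols. Of the 4190 symbols that passed the filter, 0 were called over the 9 groups and 71 had an unadjusted p below 0.05. Over the wave the numbers were 1 and 90. At single SP weeks 0 of 592 comparisons were called and 0 had an unadjusted p below 0.05, against 0% and 3.66% of all symbols. In each test DESeq2 called 0 of all symbols and limma-voom 0 of those that passed the filter, and thus 0 RP genes. They gave 1 and 8 comparisons of RP genes at single weeks below an unadjusted p of 0.05.

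Most PVN genes had a value of 0 in LP replicate 1, the library of 159 counts, so the lowest LP value carries no information there. That library still enters the LP medians given here. Rplp0 had a median of 1668 and a highest value of 2455 CPM in LP, and group medians from 1279 CPM at 28 weeks to 1967 CPM at 20 weeks SP. Rps3a had the smallest p over the 9 groups, an unadjusted 0.285 in the F-test of edgeR. It had a median of 946 and a highest value of 1416 CPM in LP, and 221, 709 and 887 CPM at 16 weeks SP. Its log2 fold change there was -0.61 ± 0.32 (95% interval -1.24 to 0.02, adjusted p = 0.933, edgeR). Rpl7 was also lowest at 16 weeks SP, with a group median of 346 CPM against 477 CPM in LP and a log2 fold change of -0.48 ± 0.27. The 16 week group held replicate 4, with 5158 counts, and replicate 3, with 22217 counts and an RP share of 2.41%. With replicate number 3 left out, the median log2 fold change of all PVN RP genes at 16 weeks turned from -0.17 to 0.07. Rps13, Rps12 and Rps14, all of the small subunit, completed the 5 genes with the smallest p. Rps12 had a median of 545 and a highest value of 897 CPM in LP and its highest group median, 850.2 CPM, at 24 weeks SP. Among the RP genes that passed the filter, the largest log2 fold change was that of Rps21, 0.70 at 24 weeks SP.

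In the DMH, 0 of 83 RP genes were called by edgeR over the 9 groups, against 4.37% of all symbols, and 1 had an unadjusted p below 0.05, against 14.2%. Most of those calls had low counts, and 61 of the 6693 symbols that passed the filter were called (0.911%). Over the 9 groups DESeq2 called 0 of all symbols and limma-voom 0 of those that passed the filter. With these tools RP genes and other symbols were thus alike in having no call. Over an annual wave 0 were called and 0 had such a p, against 3.02% and 9.95% of all symbols. Of the 6693 symbols that passed the filter, 11 were called over the wave (0.164%) and 82 had such a p. Over the 9 groups 307 of them had such a p. At single SP weeks 0 of 664 comparisons were called and 7 had an unadjusted p below 0.05 (1.05%), against 0.00229% and 6.72% of all symbols. DESeq2 and limma-voom called 0 RP genes, with 10 and 13 comparisons at single weeks below an unadjusted p of 0.05. Over the annual wave DESeq2 gave 5 RP genes such a p and called 666 of all symbols, while limma-voom called 0.

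Of those 7 comparisons in the DMH, 5 belonged to Rpl39l and Rpl10l, which had 21 and 11 counts in all and medians of 0 in every group. The others were Rpl22 and Rps23 at 20 weeks SP. Rpl22 had 119, 153 and 230.0 CPM in LP and 196, 333 and 534 CPM at 20 weeks SP, when 5 of 6 hamsters were above the highest LP hamster. Its log2 fold change was 1.12 ± 0.49 (95% interval 0.14 to 2.11, adjusted p = 0.509, edgeR). Rps23, a small subunit protein at the decoding site, had 85.6, 102 and 153 CPM in LP and 130.4, 203 and 316 CPM at 20 weeks, with a log2 fold change of 0.89 ± 0.44 (adjusted p = 0.582). Both groups overlapped LP, and neither change passed the FDR. At 20 weeks SP the median log2 fold change of the DMH RP genes was 0.13 with TMM and -1.16 without it. The values of Rpl22 and Rps23 were taken with TMM and cannot be read apart from it.

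Other DMH genes showed the same breadth, and their values rest on the same scaling. Rps27a had 139, 175 and 422 CPM in LP and its highest group median, 354 CPM, at 20 weeks SP, with a log2 fold change of 0.82 ± 0.47. Rpl5 had 36.96, 80.0 and 96.6 CPM in LP and its lowest group median, 37.9 CPM, at 28 weeks SP, with a log2 fold change of -0.81 ± 0.56. Rps27l had 10.4, 15.8 and 21.1 CPM in LP and 0, 3.23 and 16.3 CPM at 20 weeks SP, where 3 of 6 hamsters had counts and the log2 fold change was -1.18 ± 0.81. Rps12, also among the smallest p over the 9 groups, had an LP median of 67.0 CPM and group medians from 49.97 to 81.4 CPM.

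Some RP genes were listed at 0 in DMH libraries where counts would be foreseen from their usual level. A case was counted where the tissue median and the library total, without TMM, predicted more than 20 counts. This was seen 20 times for 11 genes in the DMH, against 2 in the PVN and 1 each in the MBH and pituitary gland. Rpl29 was at 0 in 5 DMH libraries, and in replicate 2 of 28 weeks SP this prediction was 254 counts. That library had a TMM factor of 0.131 and 95.7% of its counts in the 12 most abundant symbols. With TMM, fewer counts would be foreseen there and in other libraries with a low factor. Rpl4 was at 0 in 4 and Rpl3 in 3 libraries. The cases of Rpl22, Rplp2 and Rps24 were in replicate 3 of 32 weeks SP, the library of 87435 counts and the shallowest of the DMH. Of the 20 cases, those of Rpl29 and Rpl3 were in libraries whose RP share was between 0.0848% and 0.217%.

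Over all tests, the lowest adjusted p of an RP gene was 0.298, for the 21 counts of Rpl39l in the DMH at 8 weeks SP. In the MBH the lowest was 0.649, for Rps27l over the annual wave. In the pituitary gland it was 0.390, for the single count of Rpl10l over the annual wave, and in the PVN it was 0.834, for the single count of Rpl3l. Among RP genes that passed the filter, only Rpl22 and Rps23 in the DMH had an interval that did not hold 0 in the fit with TMM.

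The median log2 fold change of the RP genes was small at most weeks. Without TMM its sign turned at most weeks in the MBH and DMH, at 16, 24 and 28 weeks SP in the pituitary gland and at 8 and 32 weeks in the PVN. In the MBH it ran from -0.09 at 24 weeks SP to 0.19 at 28 weeks, where 74 of 82 RP genes had a value above 0 and the median of all symbols was 0.00. Without TMM the 28 week value was -0.09, and with replicate number 2 left out of every group it was also -0.09. The tests called 0 RP genes there in each case. In the pituitary gland it ran from -0.17 at 8 weeks to 0.15 at 32 weeks SP, beside 0.00 for all symbols and, at 32 weeks, 0.19 for symbols that passed the filter.

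In the PVN the median was 0.38 at 20 weeks and 0.39 at 24 weeks SP, with 73 of 74 RP genes above 0 at each week, beside 0.02 and 0.00 for all symbols and 0.14 and 0.09 for those that passed the filter. Without the libraries of fewer than 10000 counts, these were 0.28 and 0.23, with 71 of 74 above 0. Without TMM they were 0.24 and 0.25. Leaving out each replicate number in turn gave 0.21 to 0.48 and 0.25 to 0.43. With the total of the RP genes as library size, which takes out any change that they share, the medians were 0.0014 and 0.0034. At 16 weeks SP the median was -0.17, and with replicate number 3 left out it was 0.07. Since RP genes vary together between hamsters, the number above 0 is no count of independent genes, and none was called.

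In the DMH the median ran from -0.01 at 32 weeks to 0.36 at 16 weeks SP, while the median of all symbols ran from -0.64 to 0.00. Without TMM, weeks 4, 16, 20 and 32 of SP had RP medians of -1.08, -0.59, -1.16 and -0.79, and all symbols moved with them, with medians of -1.12, -0.86, -1.64 and -1.02. No direction can be given for the DMH apart from its scaling.

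**Figure D4:**
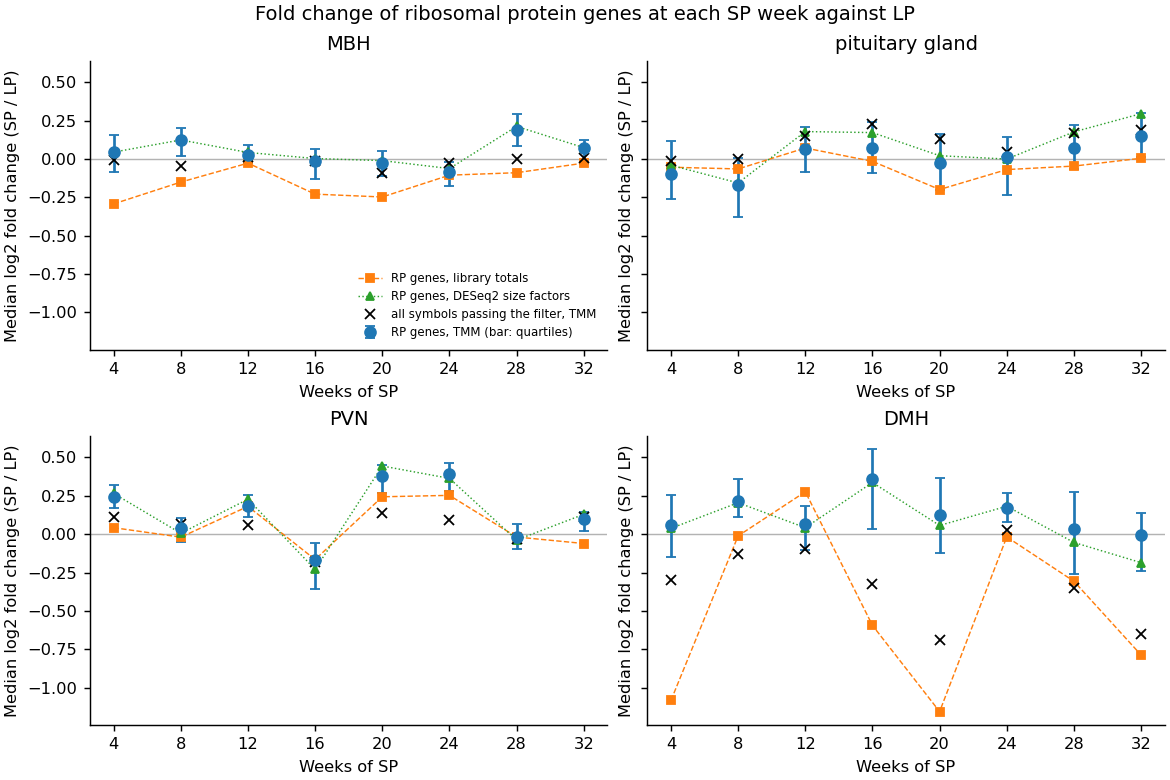
Median log2 fold change of the RP genes at each SP week against LP (y axis), with TMM (blue, bars are quartiles over genes), with library totals (orange) and with DESeq2 size factors (green), beside the median of all symbols that passed the filter (crosses). In the DMH the values with library totals fall to -1.16 at 20 weeks SP, where TMM gave 0.13.

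The spread between hamsters of a group was lower for RP genes than for other symbols, by little in the PVN. The coefficient of variation between hamsters, estimated by edgeR for the genes that passed the filter, had a median of 28.6% in the MBH against 48.04% for all symbols, 38.2% against 106% in the pituitary gland, 35.4% against 36.95% in the PVN and 48.1% against 89.4% in the DMH. These medians are a description, since RP genes have higher counts than most symbols. When the total of the RP genes stood in for the library size, the medians of the RP genes were 17.99%, 30.7%, 23.4% and 36.1%. This scaling takes out any variation that they share, so lower values follow from it. In the MBH, Rpl13 (17.4%) and Rpl4 (18.04%) varied least and Rps26 (40.3%) and Rpl22 (39.8%) most. In the DMH, Rpl4 varied most (94.0%), then Rpl29 (86.1%).

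**Figure D5:**
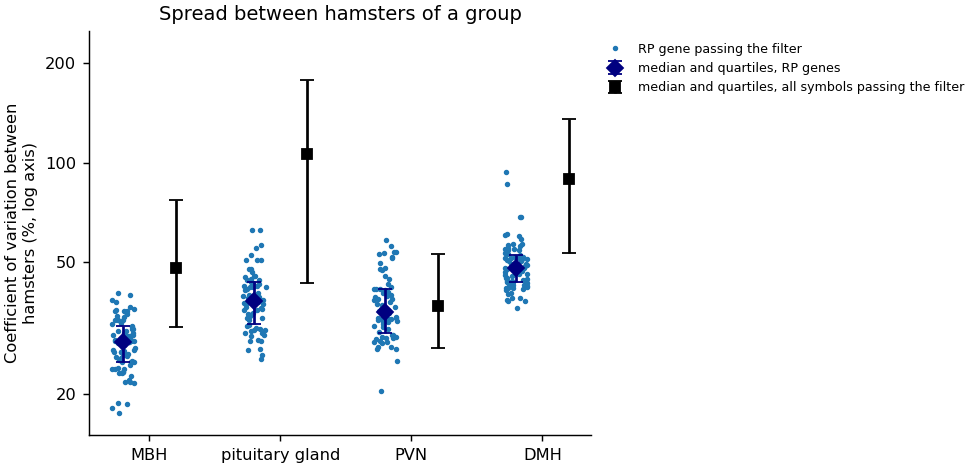
Coefficient of variation between hamsters of a group (%, y axis, log scale) for each RP gene that passed the filter (blue points), with the median and quartiles of these genes (diamonds) and of all symbols that passed (squares). The medians of RP genes were 28.6% in the MBH and 48.1% in the DMH.

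The spread sets what could have been seen. The median SE of a log2 fold change at a single week was lowest in the MBH, at 0.25, then 0.34 in the PVN, 0.48 in the DMH and 0.50 in the pituitary gland. The 95% interval lay within a 2-fold change in either direction for 623 of 632 comparisons of RP genes that passed the filter in the MBH, 396 of 576 in the PVN, 74 of 560 in the pituitary gland and 77 of 632 in the DMH. In the pituitary gland and DMH, most intervals thus leave room for a change of more than 2-fold.

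Calls among other genes of the translation machinery were few and are read against 9.53% of all symbols in the pituitary gland and 4.37% in the DMH over the 9 groups. DESeq2 called 1 symbol of the whole pituitary table and 0 of the DMH table in that test. Outside the rule, 8 further RP genes such as Fau, which is made as a fusion with a relative of ubiquitin, gave 0 calls in all 12 tests of the 4 tissues, as did 30 initiation factor genes and 24 genes of ribosome assembly. Of these the PVN table held 5, 28 and 22. Over the 9 groups, 1 gene of these lists, of ribosome assembly in the DMH, had an unadjusted p below 0.05. Of 9 elongation genes, 1 was called over the 9 groups in the pituitary gland, namely Eef2k, the kinase of elongation factor Eef2, with an adjusted p of 0.0113 and counts in 9 of 54 libraries. Of 11 genes that control growth and RP translation, 2 were called over the 9 groups in the pituitary gland, Rptor, a subunit of mTOR complexes (adjusted p = 0.0284, counts in 11 libraries), and Rps6kb2, a kinase of Rps6 (adjusted p = 0.0526, 8 libraries). In the DMH, Rps6kb2 was called (adjusted p = 0.0887, 10 libraries). Mitochondrial RP genes gave 4 calls of 83 over the 9 groups in the pituitary gland and 0 in the other tissues. Over an annual wave, Rps6kb2 (adjusted p = 0.0274) and 2 mitochondrial RP genes were called, all in the pituitary gland. At single SP weeks these lists gave 0 calls. Eef1a1, the elongation factor that brings transfer RNA, had 1134 ± 359 CPM in LP in the MBH (SD, n = 6) and was not called (adjusted p = 1, edgeR).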

How the data were processed

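The authors sequenced cDNA of 4 tissues by nanopore, aligned reads with minimap2 and deposited estimated counts per isoform made with Salmon, without normalization, in a table per tissue. Between 97.6% and 99.6% of these expected counts are whole (to within 1e-06). The paper names the mouse genome, and for the annotation behind the PVN table no source used here gives a name. Here, counts were summed per gene symbol and rounded, and Gm32262 and Lars2 were left out. All symbols of a tissue were fitted in 1 model of 9 groups with edgeR 4.0.16 (quasi-likelihood F-test in the form of edgeR 3, TMM) under R 4.3.3, with an FDR below 0.1 (BH) over all symbols. Each SP week was compared with LP, and a cosine and sine of 32 weeks, with LP at week 0, tested an annual wave. Levels are CPM with TMM. Alternatives included DESeq2 1.42.0, limma 3.58.1 (voom, on symbols that passed the filter), other scalings and filters, and leaving out replicates. Of the alternatives, 4 were added after the data were seen. Named genes were 19 fixed by role and the 5 with the smallest p over the 9 groups in each tissue, of which 1 is not reported here. Rpl41, Rps21, Rps23, Rpl4 and others named for an extreme value were chosen after their values were seen. The members and lists were chosen with earlier results of these data known. Tests were also run on simulated data. Code was run in Python 3.11.15. No sequence is printed because no reference was used here.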

Additional observations from a re-analysis of the deposited data

Results flagged for a closer look

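The RP share and the large to small subunit ratio were each examined in the 9 groups of the 4 tissues, which gives 72 sets of 6 values. In 10 of these sets a value stood apart from the other 5 by Dixon's test, where chance gives about 1 in 20. In the PVN, LP replicate 1 had an RP share of 19.5% (nearest 10.4%) and a ratio of 0.824 (nearest 1.65), on 159 counts. In the pituitary gland, replicate 6 of 20 weeks SP had a share of 1.27% (nearest 2.14%). The ratio was 2.21 in LP replicate 3 of the pituitary gland (nearest 1.58) and 1.44 in replicate 5 of 16 weeks SP (nearest 1.66), 1.75 in the MBH at 12 weeks SP (replicate 6, nearest 1.65) and 1.51 at 20 weeks SP (replicate 2, nearest 1.68, on 4433 counts). In the PVN it was 1.97 at 12 weeks SP (replicate 4, nearest 1.75). In the DMH it was 1.10 at 16 weeks SP (replicate 2, nearest 1.58) and 1.24 at 20 weeks SP (replicate 3, nearest 1.48). Their causes were not tested.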

How the results depend on the processing

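RP genes were called in 0 of the 12 tests under each of the 19 or 20 alternatives per test, including each replicate number left out. Among these, an FDR below 0.05 could not add calls to the 0 found below 0.1. The lowest adjusted p over the 9 groups of any named gene under any alternative was 0.266 (pituitary gland). The number of single week comparisons with an unadjusted p below 0.05 reached 12 in the MBH and 19 in the DMH without 1 replicate number, and 24 in the pituitary gland and 8 in the PVN with limma-voom. With a replicate block, RP genes called stayed at 0 in every test, while all symbols called over the 9 groups numbered 22 (MBH), 2357 (pituitary gland), 80 (PVN) and 166 (DMH), against 88, 2142, 3 and 954 without it. At single weeks the pituitary gland had 1369 calls of all symbols with the block and 5 without it, and over the annual wave the block gave 77, 294, 30 and 242, against 350, 1277, 102 and 660. Over the 9 groups DESeq2 called 12, 1, 0 and 0 of all symbols, and limma-voom 2, 4, 0 and 0 of those that passed the filter. The replicate number pairs no libraries by the labels, and samples with the same number correlated above 0.1 in 49, 69, 52 and 91 of 216 pairs. Each library correlated best with its own number in 28, 41, 30 and 23 of 54 cases. The mean correlation of libraries with the same number was 0.0505 (MBH), 0.0747 (pituitary gland), 0.0565 (PVN) and 0.0565 (DMH). Between libraries of different numbers it was -0.00738, -0.0146, -0.00998 and -0.00829. Libraries with the same number were thus more alike on average in each tissue, and the main model leaves the number out. Whether the replicate number marks a batch was not tested.

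The median RP share changed with the counts it was taken over. With Gm32262 and Lars2 kept it was 3.53% in the MBH and 1.89% in the pituitary gland, against 5.18% and 2.43%. With the highest isoform of each gene it was 6.78% in the MBH. Without the 12 most abundant symbols it was 7.72%, 5.25% and 7.43% in the MBH, pituitary gland and DMH, against 1.19% in the DMH with them. Median fold changes of the RP genes moved beyond the spread between hamsters in the DMH without TMM, at 4, 16, 20 and 32 weeks SP.

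Depth limits the pituitary gland most, where the median RP gene had 1097 counts over 54 libraries, against 29963 in the MBH, 13273 in the PVN and 10978 in the DMH. RP genes that share reads with pseudogene symbols keep an uncertain level. When the pseudogene counts were added to their parent, 0 RP genes were called.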
